A study of Homo sapiens with 12 samples.

Results

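The clustered protocadherin genes were followed through RNA-seq of the NK cell line YT. They were taken as every gene whose symbol begins with PCDHA, PCDHB, PCDHGA, PCDHGB or PCDHGC followed by a digit or a C, which gave 51 of the 17589 genes in the table. These comprised 13 PCDHA, 16 PCDHB, 12 PCDHGA, 7 PCDHGB and 3 PCDHGC genes. RefSeq lists 53 protein-coding genes of this kind, and PCDHA12 and PCDHA13 were not analysed here.

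YT is a human natural killer-like lymphoid line that lacks CD16a, the Fc receptor through which NK cells recognise antibody-coated targets. Lentivirus with the human EF1A promoter delivered eGFP alone (CTRL), a high-affinity non-cleavable CD16a (hnCD16), or its ectodomain fused to 2B4, DAP10 and CD3ζ (FR1) or to DAP10 and CD3ζ (FR2). Cells of every group, CTRL included, were transduced, sorted for eGFP as pools and sequenced without stimulation, with 3 libraries per group and 12 in all. The study's methods speak of independent experiments for in vitro data as a whole, but neither they nor the labels say of the RNA-seq libraries that those of a group came from separate cultures. The p-values may therefore measure only a technical spread between these libraries.

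Clustered protocadherins are cadherin-like adhesion molecules best known from neurons, where each cell uses its own small selection of them and the proteins recognise identical copies on neighbouring membranes, which underlies dendritic self-avoidance. The genes lie in alpha, beta and gamma clusters in tandem on chromosome 5. In the alpha and gamma clusters each variable first exon has its own promoter and is spliced to common exons that encode a shared cytoplasmic end, whereas each beta gene is a single exon. A promoter is chosen through CTCF and cohesin, which loop it to distant enhancers, and silent promoters carry DNA methylation.

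Most promoters of the family are known to carry a conserved sequence element with CGCT at its core, and some, PCDHB1 among them, lack it. The stretches around a CGCT are shown to let a reader compare the genes whose levels are described below. RefSeq promoter sequences (GRCh38.p14, 250 bases before to 50 after the gene start) matched 46 of the 51 genes. PCDHA3, PCDHB6, PCDHB11, PCDHGA12 and PCDHGC5 were not matched. CGCT, searched on both strands, was present in 45 of the 46 windows, PCDHA9 being the exception, against 69.4% of all 27305 promoter windows of the same length. Stretches of 44 bases with CGCT in capitals, all on the plus strand, read 5′ to 3′ as follows.
PCDHA1 (chr5:140786082-140786125): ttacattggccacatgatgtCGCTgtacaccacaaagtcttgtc
PCDHA2 (chr5:140794777-140794820): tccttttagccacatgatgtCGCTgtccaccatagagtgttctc
PCDHA4 (chr5:140806975-140807018): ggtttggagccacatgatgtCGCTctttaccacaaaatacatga
PCDHA10 (chr5:140855837-140855880): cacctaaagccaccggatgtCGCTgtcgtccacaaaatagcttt
PCDHB2 (chr5:141094540-141094583): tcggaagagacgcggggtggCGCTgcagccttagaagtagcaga
PCDHB9 (chr5:141187070-141187113): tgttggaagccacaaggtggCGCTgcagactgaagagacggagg
PCDHB16 (chr5:141182306-141182349): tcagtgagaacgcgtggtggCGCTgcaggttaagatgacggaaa
PCDHB1 (chr5:141051249-141051292): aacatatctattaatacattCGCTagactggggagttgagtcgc
PCDHGA6 (chr5:141373831-141373874): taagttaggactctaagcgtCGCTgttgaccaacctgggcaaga
PCDHGA8 (chr5:141392564-141392607): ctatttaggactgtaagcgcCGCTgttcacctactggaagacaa
PCDHGB4 (chr5:141387613-141387656): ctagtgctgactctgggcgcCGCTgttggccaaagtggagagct
PCDHGA10 (chr5:141412927-141412970): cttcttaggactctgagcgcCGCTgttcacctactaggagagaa
PCDHGC3 (chr5:141475876-141475919): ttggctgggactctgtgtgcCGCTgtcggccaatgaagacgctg

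The letters beside the core differed between the clusters, and 9-letter words that contain it were counted on both strands. These words were found by counting in the same promoters, so their counts are a description, and the last of them overlaps the one before it. GATGTCGCT occurred in 8 of 12 PCDHA windows (0.103% of all windows) and in no window of the other clusters. GGTGGCGCT occurred in 13 of 14 PCDHB windows (0.524% of all windows), all but that of PCDHB1. GCGCCGCTG occurred in 6 of 11 PCDHGA and 4 of 7 PCDHGB windows (1.25% of all windows), and CGCCGCTGT in 5 and 4 of them (0.59% of all windows). The exact string AGGNGGC, part of the CTCF core motif, was present in 4 of 46 windows, against 35.6% of all windows. CTCF sites that depart from this string were not searched for, so these are not counts of CTCF sites. PCDHA1 and PCDHA4 both hold the PCDHA word, and PCDHB2 and PCDHB16 both hold the PCDHB word. The levels of these genes are given below. Whether a word is related to the level of a gene was not tested.

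The libraries held 17714566 to 18729019 counts. FCGR3A, the CD16 gene, had 0 counts in the CTRL libraries. With hnCD16 it had 453 to 480, and with FR1 and FR2 559 to 567 and 1012 to 1132. The markers of the labelled cell type split the libraries into the same pairs as many clustered protocadherins did. CD3D, a T cell receptor subunit, had 439 ± 46.6 CPM in CTRL and 520 ± 26.7 in hnCD16 (SD, n = 3), and 0 to 3 counts per library in FR1 and FR2. PRF1, the perforin of cytotoxic granules, had 0.437 ± 0.21 and 0.414 ± 0.14 CPM in CTRL and hnCD16, against 423 ± 23.4 in FR1 and 543 ± 6.47 in FR2. The summed level of 10 NK cell markers was 64.9 to 70.0 CPM in CTRL and 66.6 to 73.9 in hnCD16, against 1360 to 1429 in FR1 and 1402 to 1455 in FR2. CD2 stood at 3 counts or fewer in all groups and TYROBP at 0 in FR1 and FR2. The sum of 8 T cell markers was 672 to 812 CPM over CTRL and hnCD16 and 128 to 169 over FR1 and FR2, where CD3D, CD4, CD6 and CD8A stood at 3 counts or fewer. Not all markers followed their sum. In FR1 against hnCD16, by the test described below, 1 of the 8 T cell markers was called higher and 7 lower. Of the NK cell markers 8 were tested, with 5 called higher and 2 lower. Over all tested genes 18.7% were called higher and 19.6% lower. The same counts were found in FR2 against CTRL. Wherever an FR group is compared with CTRL or with hnCD16, the construct and this difference in marker genes cannot be told apart. hnCD16 against CTRL and FR1 against FR2 do not cross that difference. In bulk RNA, fewer expressing cells and less RNA per cell cannot be told apart either.

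All clustered protocadherins were expressed at low levels, and the whole family summed to 27.8 to 34.3 TPM (a level corrected for transcript length and library size) in CTRL. The hnCD16 libraries summed to 24.0 to 26.7 TPM, those of FR1 to 11.1 to 11.8 and those of FR2 to 14.7 to 15.4. In counts the same sums ran from 1310 to 1544 (CTRL), 1109 to 1236 (hnCD16), 583 to 609 (FR1) and 691 to 748 (FR2). A mean of at least 1 TPM was reached by 11 genes of CTRL and 9 of hnCD16, but by 2 of FR1 and 3 of FR2. At the other end, 3 counts or fewer in every library of the group were found for 16 genes of CTRL and 14 of hnCD16, and for 23 of FR1 and 22 of FR2, 3 counts being the floor used here (0.149 to 0.174 CPM per library).

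**Figure D1:**
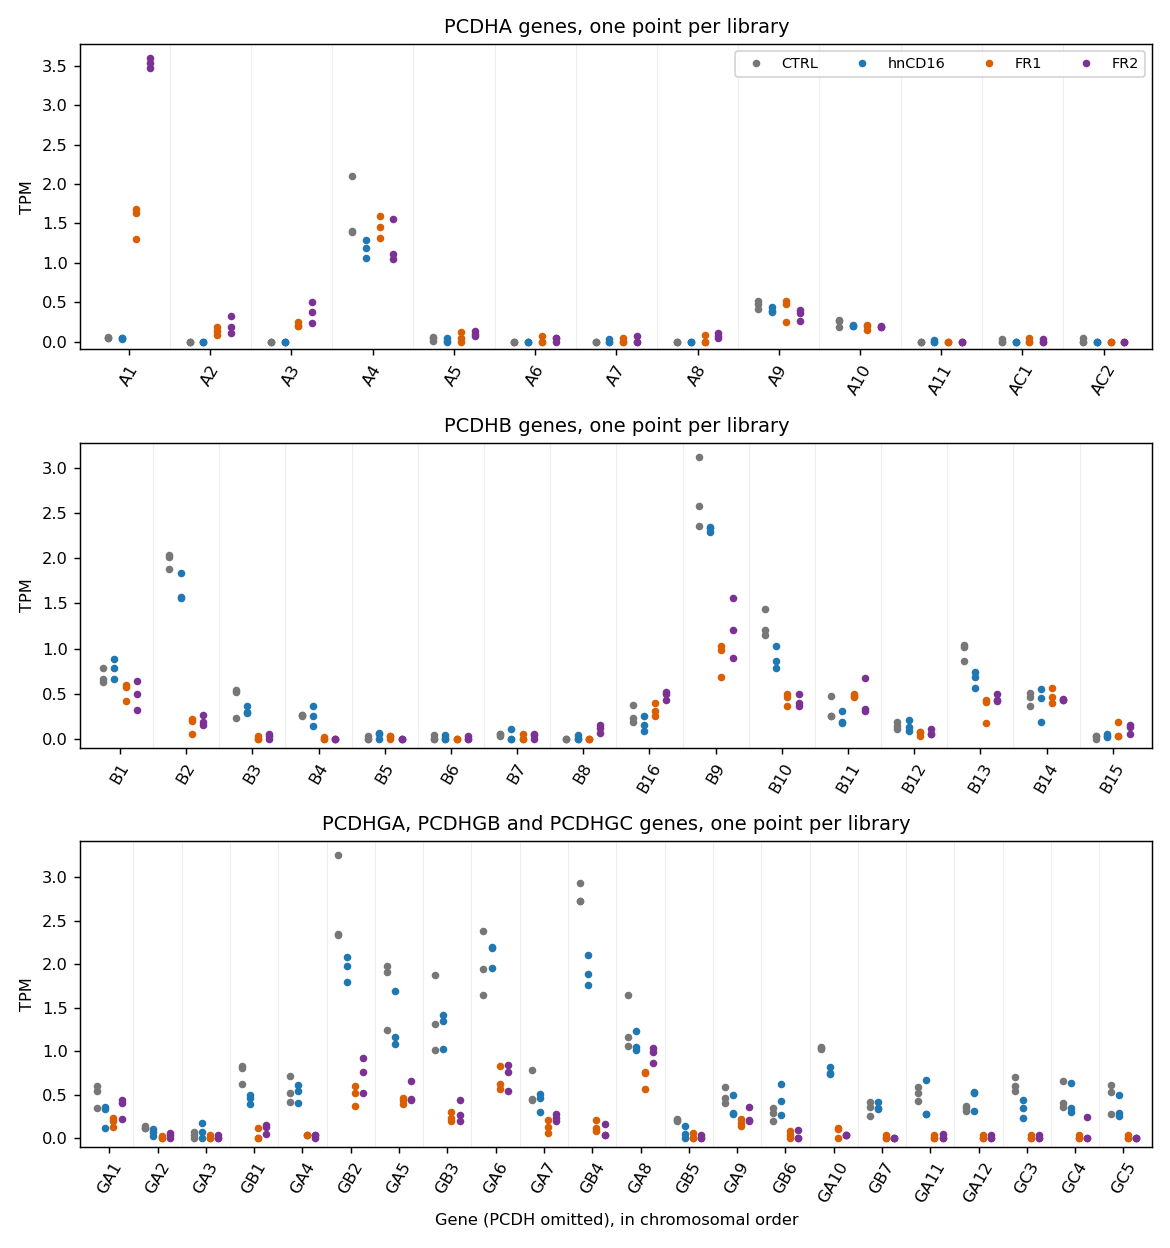
TPM of the 51 clustered protocadherin genes in each of the 12 libraries, with the genes in chromosomal order and 1 point per library coloured by group. PCDHA1 is at 0.03 to 0.06 TPM in the CTRL and hnCD16 libraries and at 1.3 to 3.6 in the FR1 and FR2 libraries, whereas PCDHGB4 is at 1.76 to 2.93 and 0.04 to 0.21.

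The clusters moved differently. The summed PCDHA level was 2.45 ± 0.509 TPM in CTRL and 1.86 ± 0.117 in hnCD16, against 4.09 ± 0.0896 in FR1 and 6.12 ± 0.426 in FR2 (SD, n = 3). The summed PCDHB level was 9.55 ± 0.696 and 7.94 ± 0.627 TPM in CTRL and hnCD16, and 3.85 ± 0.445 and 4.5 ± 0.279 in FR1 and FR2. Thus, in TPM, the PCDHA sum was higher, and the PCDHB sum lower, in each of the 6 FR1 and FR2 libraries than in any of the other 6. The 3 gamma groups were lower in every FR1 and FR2 library as well. PCDHGA summed to 9.12 ± 0.932, 7.87 ± 0.765, 2.44 ± 0.137 and 3.17 ± 0.413 TPM in CTRL, hnCD16, FR1 and FR2. PCDHGB summed to 8.41 ± 1.08, 6.44 ± 0.38, 0.983 ± 0.105 and 1.26 ± 0.18 TPM. PCDHGC, the C-type genes at the far end of the gamma cluster, summed to 1.56 ± 0.38, 1.11 ± 0.297, 0.0367 ± 0.0351 and 0.09 ± 0.131 TPM, and its 3 genes together held 0 to 5.65 counts per FR1 or FR2 library. The highest of these was FR2 replicate 1, and without it the log2 ratio of FR2 to CTRL was -6.7, in place of -4.12. On the CPM scale, which does not correct for length, the PCDHA sums of 11.9 ± 2.02, 9.99 ± 0.377, 15.5 ± 0.897 and 17.8 ± 1.75 lay closer together. In unscaled expected counts they overlapped, at 287.28 in CTRL replicate 3 and 258.41 to 283.31 in FR1. PCDHA1 alone had means of 0.0467, 0.0367, 1.54 and 3.54 TPM in CTRL, hnCD16, FR1 and FR2.

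**Figure D2:**
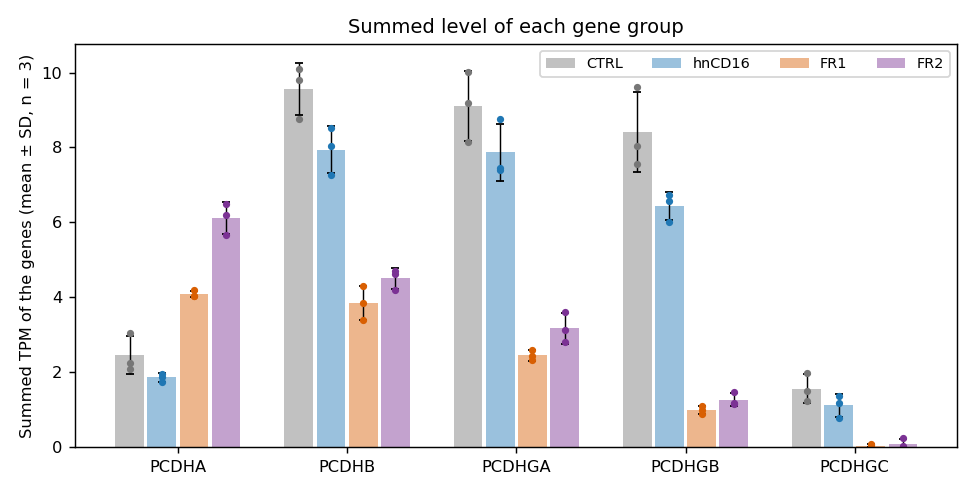
Summed TPM of the PCDHA, PCDHB, PCDHGA, PCDHGB and PCDHGC genes in the 4 groups. Bars are means, error bars SD (n = 3) and points libraries; the PCDHA sum is the only one of the 5 that is higher in FR1 (4.09) and FR2 (6.12) than in CTRL (2.45) and hnCD16 (1.86).

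Differential expression was tested over the 13657 genes left after a filter on low counts. A gene was called a differentially expressed gene (DEG) where its log2 fold change reached 1 in either direction with an adjusted p no higher than 0.05. Of the 51 clustered protocadherins, 33 passed the filter, which were 5 PCDHA, 9 PCDHB, 10 PCDHGA, 6 PCDHGB and 3 PCDHGC genes. The other 18 had at most 14.02 counts in any library. The filter keeps a gene that is high in a single group, so a gene that passed it through that group alone had to differ from the others, and the counts of DEGs below describe the tested genes only.

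In FR1 against hnCD16, 23 of the 33 tested genes were DEGs, 4 higher and 19 lower, where 38.3% of all tested genes were DEGs (18.7% higher and 19.6% lower). In FR2 against hnCD16 there were 21, 3 higher and 18 lower (39.5% of all tested genes, 19.6% higher and 19.8% lower). In FR1 against CTRL there were 25, 2 higher and 23 lower (38.0% of all tested genes, 18.3% higher and 19.8% lower), and in FR2 against CTRL 21, 3 higher and 18 lower (38.2% of all tested genes, 18.7% higher and 19.6% lower). These 4 comparisons share their libraries pairwise. The median log2 fold change over the 33 genes was -1.55, -1.27, -1.77 and -1.36 in this order, beside -0.01, -0.03, -0.03 and -0.04 over all tested genes. With the 11 genes that had 3 counts or fewer in every library of a group set to the floor, it was -1.55, -1.27, -1.35 and -1.26. The counts of DEGs depended on the treatment of low counts. With at least 10 counts required in every library they were 4, 4, 5 and 4 of 10 tested genes. Of all genes tested at that setting 27.8%, 29.3%, 27.6% and 27.6% were DEGs. By limma on log2(TPM + 1) the family had 3, 3, 4 and 4 DEGs of 33 genes. That was below the 29.5%, 31%, 30.4% and 30.7% of all genes at that setting. A fit of the FR1 and hnCD16 libraries alone gave 15 of 23 tested genes (37.8% of all tested genes). By range, 20 of the 33 genes were lower in all 6 FR1 and FR2 libraries than in any of the other 6 (37.9% of all tested genes), and 2 were higher in all 6 (27.1% of all tested genes). The 20 comprised 5 PCDHB, 6 PCDHGA, all 6 tested PCDHGB and all 3 PCDHGC genes.

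**Figure D3:**
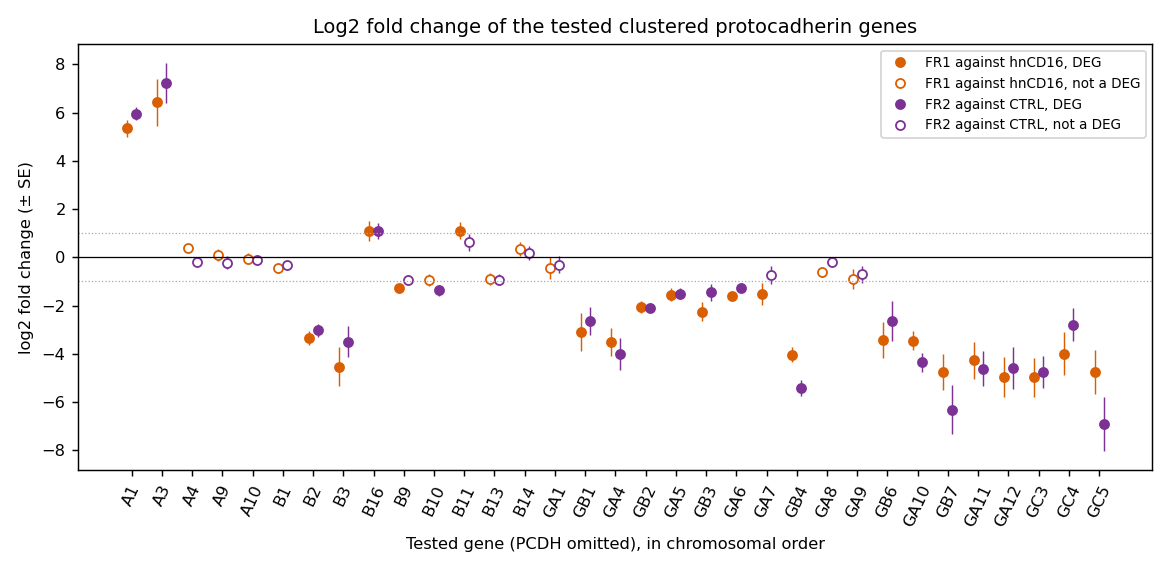
Log2 fold change (± SE) of the 33 tested clustered protocadherin genes in FR1 against hnCD16 and FR2 against CTRL, in chromosomal order, with filled points for DEGs and dotted lines at a log2 fold change of 1 in either direction. PCDHA1 and PCDHA3 stand above the rest, the PCDHB genes lie on both sides of 0, and all tested gamma genes lie below 0.

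Within the pairs few calls were made. In hnCD16 against CTRL no clustered protocadherin was a DEG by edgeR (0.527% of all tested genes were), nor by DESeq2, although 3 had an unadjusted p under 0.05 by edgeR and 1 by DESeq2. The smallest adjusted p was that of PCDHGB2, at a log2 fold change of -0.58 (SE 0.163, adjusted p = 0.0088), under the fold required. In FR1 against FR2 a single gene, PCDHA1, was a DEG (1.93% of all tested genes were, 1.49% as lower in FR1).

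PCDHA1 is the first variable exon of the alpha cluster (NCBI Gene 56147, chr5:140786140-141012347 in GRCh38.p14, a span that takes in the whole alpha cluster downstream). It had 0.04, 0.06 and 0.04 TPM in the CTRL libraries and 0.03, 0.04 and 0.04 in the hnCD16 libraries. It had 1.63, 1.3 and 1.69 TPM in the FR1 libraries and 3.54, 3.48 and 3.6 in the FR2 libraries. The 3 levels of gene expression, near the floor, intermediate and high, did not overlap. Summed counts were 128 in FR1 and 3 in hnCD16, a ratio of 45.6 (95% counting interval 15.3 to 224), and 298 in FR2 and 5 in CTRL, a ratio of 67.1 (28.4 to 208). The fitted log2 fold changes were 5.34 (SE 0.361, adjusted p = 2.16e-10) and 5.96 (SE 0.276, adjusted p = 9.70e-13). PCDHA1 was also lower in FR1 than in FR2, by 2.29-fold (log2 fold change -1.19, SE 0.152, adjusted p = 1.48e-05), with each FR1 library under each FR2 library.

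The neighbours of PCDHA1 shared its direction at far lower levels. PCDHA3 was listed at 0 in all CTRL and hnCD16 libraries, at 0.2, 0.25 and 0.2 TPM in FR1 and at 0.5, 0.24 and 0.37 TPM in FR2. It was at least 3.57-fold higher in FR1 than in hnCD16 and at least 6.62-fold higher in FR2 than in CTRL, against a floor of 3 counts per library (adjusted p = 3.69e-05 and 2.25e-06). PCDHA2, named after its values were seen, was likewise at 0 in 6 libraries and had 2.54 to 9.38 counts in the FR1 and FR2 libraries, too few to be tested. PCDHA8 was at 0 in the same 6 libraries and had at most 3 counts in the others.

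PCDHA4, the leading alpha gene of CTRL and hnCD16, was measured in every library. It had 1.4, 1.39 and 2.1 TPM in CTRL, 1.06, 1.19 and 1.29 in hnCD16, 1.32, 1.6 and 1.46 in FR1, and 1.11, 1.05 and 1.56 in FR2. Each FR1 library was above each hnCD16 library and each hnCD16 library below each CTRL library, while FR2 overlapped the other 3 groups. The log2 fold change was 0.38 in FR1 against hnCD16 (SE 0.157, adjusted p = 0.0344), under the fold required, and -0.19 in FR2 against CTRL (SE 0.154, adjusted p = 0.277). In FR2 against CTRL the sign turned to 0.02 without CTRL replicate 3. PCDHA9 and PCDHA10, also named after their values were seen, had 0.25 to 0.52 and 0.15 to 0.27 TPM over the 12 libraries and were DEGs in neither of these comparisons. On the TPM scale PCDHA4 took 66.2% ± 3.75 of the summed PCDHA TPM in CTRL and 63.5% ± 2.28 in hnCD16. PCDHA1 took 37.7% ± 4.91 in FR1, beside 35.8% ± 4.11 for PCDHA4, a difference within the spread, and 58.0% ± 3.15 in FR2, beside 20.2% ± 3.35 for PCDHA4. By CPM, without a correction for length, PCDHA4 led in every group, at 9.1 ± 0.842 against 2.46 ± 0.275 for PCDHA1 in FR1 (where PCDHA1 took 15.9%) and 7.64 ± 1.7 against 5.62 ± 0.0372 in FR2. PCDHA11 and the C-type genes PCDHAC1 and PCDHAC2 had at most 1.0 count in any library.

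The PCDHB genes, whose single exons share no common exon, went in both directions. PCDHB2 had 1.88, 2.03 and 2.01 TPM in CTRL and 1.84, 1.57 and 1.56 in hnCD16, against 0.22, 0.06 and 0.2 in FR1 and 0.19, 0.15 and 0.26 in FR2. The pairs did not overlap. It fell 10.4-fold in FR1 against hnCD16 (log2 fold change -3.35, SE 0.282, adjusted p = 4.73e-09) and 8.26-fold in FR2 against CTRL (log2 fold change -3.03, SE 0.259, adjusted p = 5.81e-09). PCDHB3 had 0.23, 0.52 and 0.54 TPM in CTRL, 0.37, 0.29 and 0.3 in hnCD16, and at most 0.06 in FR1 and FR2. Its summed counts were 33 in hnCD16 and 1 in FR1, a ratio of 30.8 (95% counting interval 5.16 to 1255), and 42 in CTRL and 3 in FR2, a ratio of 12.4 (3.98 to 62.8). It was a DEG in both comparisons (adjusted p = 5.67e-05 and 6.54e-05).

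PCDHB9 was the leading beta gene in every group, taking 28.1% ± 4.42 (CTRL), 29.3% ± 2.52 (hnCD16), 23.2% ± 2.83 (FR1) and 27.2% ± 7.37 (FR2) of the summed PCDHB TPM. It had 2.57, 3.12 and 2.35 TPM in CTRL, 2.33, 2.34 and 2.29 in hnCD16, 0.68, 0.98 and 1.03 in FR1, and 1.56, 1.2 and 0.9 in FR2. Every FR1 and FR2 library was below every other. Its log2 fold change was -1.29 in FR1 against hnCD16 (SE 0.191, adjusted p = 7.23e-06) and -0.93 in FR2 against CTRL (SE 0.177, adjusted p = 1.14e-04), the latter under the fold required. PCDHB10 fell 2.58-fold in FR2 against CTRL (adjusted p = 3.33e-05) and stood at -0.93 on the log2 scale in FR1 against hnCD16 (adjusted p = 0.0019). PCDHB13 had -0.9 and -0.92 (adjusted p = 0.00417 and 0.00141), also under the fold required, and was a DEG in FR1 against CTRL at -1.32 (adjusted p = 8.40e-05).

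PCDHB16 went the other way. It had 0.23, 0.19 and 0.38 TPM in CTRL, 0.25, 0.15 and 0.09 in hnCD16, 0.4, 0.25 and 0.31 in FR1, and 0.43, 0.52 and 0.5 in FR2. FR2 lay above CTRL in all libraries, while the FR1 and hnCD16 ranges met at 0.25. Its log2 fold change was 1.08 in FR1 against hnCD16 (SE 0.409, adjusted p = 0.0228) and 1.09 in FR2 against CTRL (SE 0.342, adjusted p = 0.00768). These calls were marginal: 0.74 without hnCD16 replicate 3, 0.89 without FR1 replicate 1 and, in FR2 against CTRL, 0.89 without CTRL replicate 2 were no longer DEGs. Without hnCD16 replicate 2 the FR1 value was 1.05, and that call was lost too. PCDHB11 had 0.31, 0.18 and 0.19 TPM in hnCD16 and 0.48, 0.5 and 0.46 in FR1, a log2 fold change of 1.11 (SE 0.359, adjusted p = 0.00916) that was 0.98 and 0.97 without hnCD16 replicate 2 or 3. In FR2 against CTRL it was 0.62 (adjusted p = 0.108). PCDHB1, whose window alone among the 14 matched PCDHB windows lacked the PCDHB word, was a DEG in neither, at -0.46 (adjusted p = 0.0489) and -0.31 (adjusted p = 0.199). PCDHB11 had no matched window. PCDHB14, outside the naming rule, had 0.34 (adjusted p = 0.305) and 0.19 (adjusted p = 0.561).

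In the gamma cluster no tested gene was higher in FR1 or FR2 as a DEG. PCDHGB4 (NCBI Gene 8641) had 2.72, 2.93 and 2.72 TPM in CTRL and 2.1, 1.89 and 1.76 in hnCD16, against 0.08, 0.21 and 0.12 in FR1 and 0.16, 0.04 and 0.04 in FR2. It led the PCDHGB genes of CTRL with 33.6% ± 4.57 of their TPM and held 14.5% ± 8.49 in FR1. It fell 16.9-fold in FR1 against hnCD16 (log2 fold change -4.04, SE 0.316, adjusted p = 1.71e-09) and 45.4-fold in FR2 against CTRL (log2 fold change -5.42, SE 0.342, adjusted p = 7.92e-11). The latter rests on 6 summed counts in FR2 against 305 in CTRL, a ratio of 45.2 (95% counting interval 20.5 to 124), and the log2 fold change was -6.32 without FR2 replicate 1. Its neighbour by position, PCDHGA8, had 1.06, 1.16 and 1.65 TPM in CTRL, 1.23, 1.05 and 1.01 in hnCD16, 0.76, 0.75 and 0.56 in FR1, and 0.86, 0.99 and 1.03 in FR2. PCDHGA8 was a DEG in neither comparison, at -0.61 (SE 0.209, adjusted p = 0.0133) and -0.2 (SE 0.192, adjusted p = 0.357), and it led the PCDHGA genes in FR1 and FR2 with 28.3% ± 4.69 and 30.5% ± 2.87 of their TPM.

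PCDHGB2, PCDHGA6 and PCDHGA5 fell by smaller folds and kept a measurable level. PCDHGB2 had 2.34, 2.35 and 3.25 TPM in CTRL, 2.08, 1.79 and 1.98 in hnCD16, 0.6, 0.37 and 0.52 in FR1 and 0.92, 0.76 and 0.52 in FR2, and it fell 4.18-fold in FR1 against hnCD16 (adjusted p = 2.57e-07) and 4.25-fold in FR2 against CTRL (adjusted p = 2.82e-08). PCDHGA6 fell 3.02-fold and 2.4-fold (adjusted p = 1.91e-07 and 3.71e-06). PCDHGA5 fell 2.94-fold and 2.83-fold (adjusted p = 2.77e-05 and 1.70e-05). PCDHGB3 fell 4.83-fold and 2.75-fold (adjusted p = 4.53e-05 and 0.0013). PCDHGA7 fell 2.93-fold in FR1 against hnCD16 (adjusted p = 0.00479) and had a log2 fold change of -0.73 in FR2 against CTRL (adjusted p = 0.074). PCDHGA1 and PCDHGA9 were DEGs in neither, at -0.46 and -0.31 and at -0.89 and -0.71, but both were lower in FR1 against CTRL, at -1.25 and -1.16 (adjusted p = 0.0091 and 0.0121).

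Several gamma genes were close to the floor in FR1 and FR2, in the first part of the cluster as well as at its far end, from PCDHGA10 to the C-type genes. PCDHGA4, in the first part, had 0.52, 0.41 and 0.71 TPM in CTRL, 0.54, 0.61 and 0.4 in hnCD16 and at most 0.04 in FR1 and FR2. Its summed counts were 65 in hnCD16 and 5 in FR1, a ratio of 12.2 (95% counting interval 4.95 to 38.7), and 60 in CTRL and 3 in FR2, a ratio of 17.8 (5.8 to 88.6), and it was a DEG in both comparisons (adjusted p = 3.31e-05 and 3.05e-05). PCDHGB1, also in the first part, had 0.39 to 0.83 TPM in CTRL and hnCD16 and at most 0.15 in FR1 and FR2, and it fell 9.22-fold in FR1 against hnCD16 and 6.4-fold in FR2 against CTRL (adjusted p = 0.00159 and 5.09e-04). PCDHGA10 had 1.05, 1.03 and 1.02 TPM in CTRL and 0.82, 0.75 and 0.74 in hnCD16, against 0, 0.1 and 0.11 in FR1 and 0.04, 0.04 and 0.03 in FR2. It fell 11.4-fold in FR1 against hnCD16 (log2 fold change -3.45, SE 0.39, adjusted p = 2.52e-07), and its summed counts were 145 in CTRL and 6 in FR2, a ratio of 21.5 (95% counting interval 9.63 to 59.5). PCDHGC3 had 0.54, 0.7 and 0.6 TPM in CTRL, 0.23, 0.44 and 0.35 in hnCD16, 0, 0.03 and 0 in FR1 and 0, 0.03 and 0 in FR2. Its summed counts were 45 in hnCD16 and 1 in FR1, a ratio of 42.1 (7.18 to 1698), and 71 in CTRL and 2 in FR2, a ratio of 31.6 (8.42 to 266). PCDHGB7 and PCDHGC5 were listed at 0 in all FR2 libraries, which put them at least 3.15-fold and at least 4.74-fold lower than in CTRL. PCDHGA11, PCDHGA12 and PCDHGC4 were DEGs in both comparisons as well, and PCDHGC4 kept 0.24 TPM in FR2 replicate 1 beside 0 in the other FR2 libraries. PCDHGB6, upstream of them, had at most 0.09 TPM in FR1 and FR2 and 0.2 to 0.62 in CTRL and hnCD16. Counting intervals cover counting error only, and the fitted fold changes of genes this close to the floor depend on the prior count of the fit.

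Among the 18 untested genes, PCDHB4 had 0.14 to 0.36 TPM in CTRL and hnCD16, 0.02 in one FR1 library and 0 in the other FR1 and FR2 libraries. PCDHB8, in the other direction, was at 0.15, 0.07 and 0.12 TPM in FR2 and had a value in 1 of the other 9 libraries, 0.04 TPM in hnCD16 replicate 1. Both were named after their values were seen.

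Members of the alpha and of the gamma cluster overlap in the annotation and share common exons, so the division of reads between them is RSEM's estimate and each value is uncertain. Whether counting used strand is not stated, so reads of antisense genes could not be separated. The deposited values of the 79 transcripts of these genes added up to the gene's counts in 612 of 612 gene values, within 0.05 counts. The ratio of counts to TPM gives the length RSEM used for a transcript, which 8 single-exon PCDHB genes calibrated to within 0.127%, and each transcript with at least 20 counts over the libraries was matched to a GENCODE transcript length within 10%. In PCDHA, 5 transcripts matched a GENCODE transcript of a single exon, with 2726 bases for PCDHA1, 4594 for PCDHA3 and 6900 for PCDHA9. Those of PCDHA4 and PCDHA10 had 10557 and 12358 bases. How much of each is the variable exon was not examined. These 5 held 173.92 to 283.83 counts per CTRL or hnCD16 library and 248.14 to 321.58 per FR1 or FR2 library. No PCDHA transcript matched the variable exon spliced to the common exons alone. The 12 PCDHA transcripts under 20 counts together held at most 17.39 counts per library. Nearly all PCDHA counts, PCDHA1 included, were thus assigned to transcripts without the common exons.

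The gamma genes had counts of both kinds. PCDHGA transcripts matched to the spliced form had means of 62.4, 38.2, 4.3 and 11.8 counts per library in the order CTRL, hnCD16, FR1 and FR2, beside 261.6, 260.6, 73.9 and 86.1 for the single-exon form. PCDHGB transcripts of the spliced form had 124.8, 72.6, 11.2 and 22.4 counts, beside 63.6, 66.5, 14.0 and 17.1 for the single-exon form. A further PCDHGB transcript, with means of 69.8, 49.7, 1.3 and 0.0 counts, matched both lengths and was left out of these sums. Transcripts of no matching length were left out as well. They were 2 of PCDHGA, with summed means of 58.1, 51.6, 29.9 and 41.2 counts, and 3 of PCDHGB, with 39.7, 35.3, 3.5 and 3.0. The PCDHGA part was mostly PCDHGA8. PCDHGC transcripts of the spliced form had 34.8, 26.8, 0.4 and 0.4 counts. For PCDHGA and PCDHGB, both forms were lower in all 6 libraries of the FR groups than in any of the other 6. Length matching is a reading of the deposited values, and spliced reads were not counted here.

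**Figure D4:**
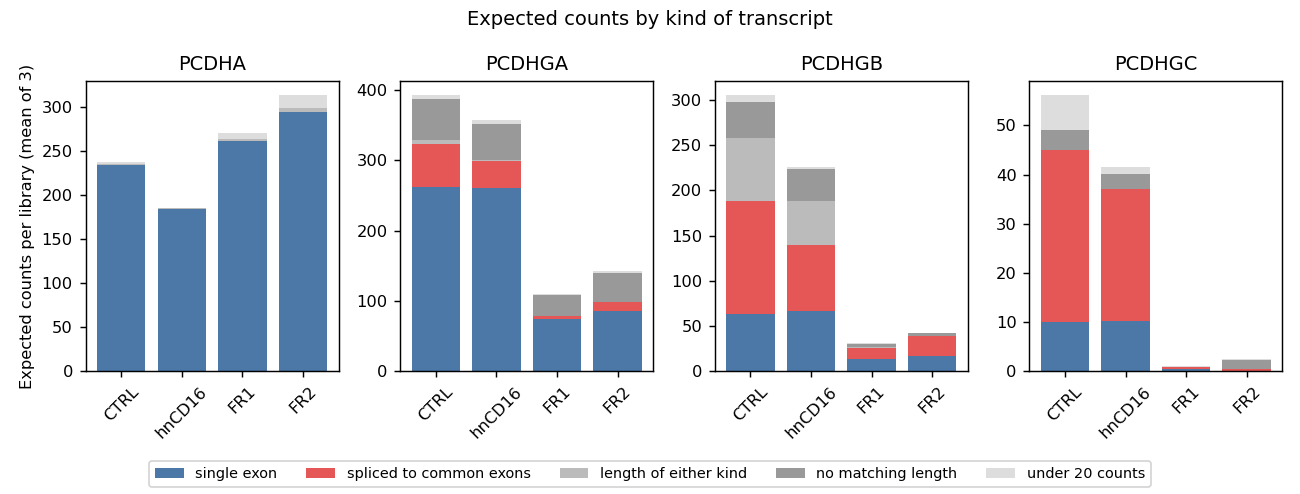
Expected counts per library (mean of 3) by kind of transcript for PCDHA, PCDHGA, PCDHGB and PCDHGC in the 4 groups, the kind taken from the length implied by counts and TPM and grey where it could not be assigned. PCDHA counts are almost all of the single-exon kind (234.1 in CTRL, 294.8 in FR2), whereas PCDHGB has counts of both kinds (124.8 spliced and 63.6 single-exon in CTRL, 11.2 and 14.0 in FR1) and a part that could not be assigned.

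Genes that act on the choice and silencing of these promoters were read from the same fit. Of 30 such genes, all tested, 5 were higher and 4 lower in FR1 against hnCD16 (38.3% of all tested genes were DEGs), and 2 were higher and 9 lower in FR2 against CTRL (38.2%), with median log2 fold changes of -0.10 and -0.36. DNMT3B, a de novo DNA methyltransferase, had 24.3 ± 0.397 and 21.5 ± 0.498 CPM in CTRL and hnCD16, and 3.74 ± 0.768 and 6.07 ± 0.269 in FR1 and FR2. TET1, which oxidises methylated cytosine, had 30.2 ± 4.26, 24.8 ± 2.79, 1.06 ± 0.163 and 1.05 ± 0.25 CPM. In FR1 against hnCD16, DNMT3B fell by 2.52 and TET1 fell by 4.54 on the log2 scale (adjusted p = 1.23e-13 and 6.20e-14). TET2, of the same enzyme family as TET1, fell by 3.79 (adjusted p = 6.77e-12). A gene that writes and a gene that removes the mark that silences these promoters were thus both lower where PCDHA1 was higher and most gamma genes lower. Whether either has a part in the protocadherin levels was not tested.

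NSD1, a histone H3K36 methyltransferase, rose by 2.58 in FR1 against hnCD16 and by 2.08 in FR2 against CTRL on the log2 scale (adjusted p = 1.70e-17 and 2.39e-16). NIPBL, the cohesin loader, rose by 1.48 in FR1 against hnCD16 (adjusted p = 9.37e-09) and had 0.59 in FR2 against CTRL, under the fold required. SETDB1, a histone H3K9 methyltransferase, rose by 1.02 in the former (adjusted p = 8.98e-11) and had 0.72 in the latter. CTCF, the cohesin subunit RAD21 and SMCHD1, which silences the clusters, were DEGs in neither: CTCF had 0.27 and -0.35, RAD21 -0.05 and -0.26, and SMCHD1 0.88 and 0.64. SMCHD1, under the fold required, had 189 to 257 CPM in the FR1 and FR2 libraries. All of these lay above the 97.9 to 167 CPM of the CTRL and hnCD16 libraries, whereas the ranges of CTCF and RAD21 overlapped.

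**Figure D5:**
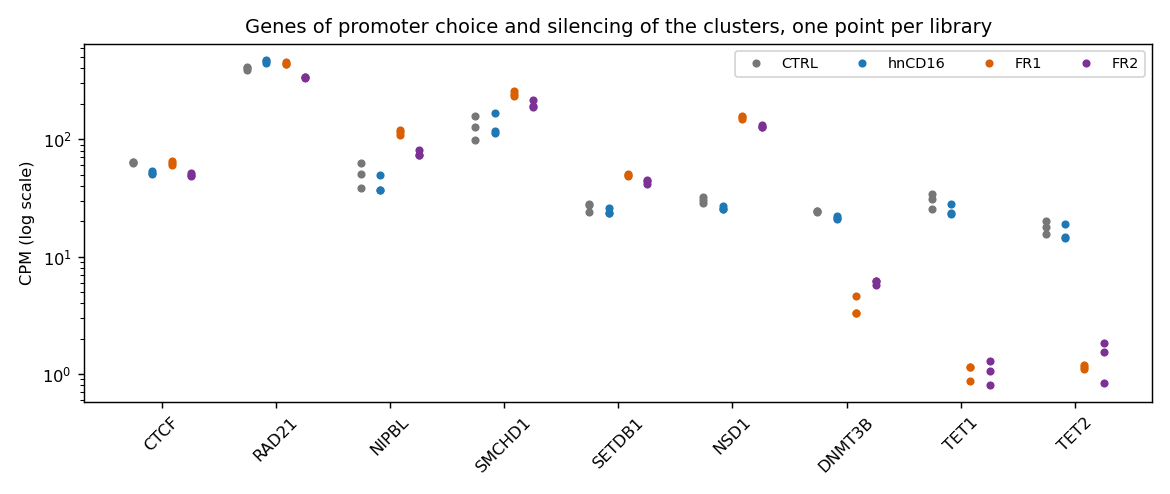
CPM (log scale) of 9 genes of promoter choice and silencing in each library, coloured by group. TET1, TET2 and DNMT3B are lower in all FR1 and FR2 libraries (TET1 at 0.8 to 1.3 CPM against 22.9 to 34.0), and CTCF lies between 48.9 and 65.2 CPM in every library.

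Of 24 genes that process clustered protocadherins or bind their cytoplasmic ends, 23 were tested, and 6 were higher and 5 lower in FR1 against hnCD16 (38.3% of all tested genes were DEGs), with 5 and 5 in FR2 against CTRL (38.2%). The gamma-secretase, which cleaves clustered protocadherins, had one subunit in each direction. PSEN2, an alternative catalytic subunit, had 0 counts in all hnCD16 libraries and 349 to 391 in FR1, at least 134-fold higher. APH1B, an alternative accessory subunit, went from 918 to 1081 counts per hnCD16 library to 0 to 3 per FR1 library, a ratio of summed counts of 467 (95% counting interval 214 to 1273). NCKAP1 and WASF1, of the WAVE complex that binds the cytoplasmic end of several protocadherins, fell by 5.21 and 1.47 on the log2 scale (adjusted p = 4.94e-18 and 4.86e-11). The kinases FYN and PTK2B, the latter inhibited by clustered protocadherins, rose by 2.46 and 2.45 (adjusted p = 2.66e-17 and 6.95e-16).

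The protocadherins outside the clusters, which have their own promoters, differed as well. Of 11 listed, 9 were in the table and 6 were tested. In FR1 against hnCD16 4 were higher and 1 lower (18.7% and 19.6% of all tested genes), and in FR2 against CTRL 4 were higher and 2 lower (likewise 18.7% and 19.6%). PCDH7 had 0 counts in every CTRL and hnCD16 library, 313 to 390 in FR1 and 330 to 338 in FR2, at least 123-fold higher in FR1 than in hnCD16. PCDH18 went from 0 to 302 to 313 counts in FR1 and 323 to 392 in FR2, at least 110-fold higher in FR1. PCDH9 had 617 to 884 counts over the CTRL and hnCD16 libraries and 27 to 45 over those of FR1 and FR2, a fall of 4.36 on the log2 scale in FR1 against hnCD16 (adjusted p = 6.21e-16). Of 18 listed genes beside the clusters on chromosome 5, 14 were tested, 2 were higher and none lower in both FR1 against hnCD16 and FR2 against CTRL, where 38.3% and 38.2% of all tested genes were DEGs. These were FCHSD1, at 4 to 11 counts in CTRL and hnCD16 and 196 to 281 in FR1 and FR2, and RELL2, at 1.35 and 1.81 on the log2 scale. Of 10 markers of neurons, the cells best known for these genes, 9 had values. MAP2, STMN2 and NEFL were each at 3 counts or fewer in all groups or without values. The neuron markers summed to 11.6 to 18.2 CPM over the CTRL and hnCD16 libraries and to 6.59 to 7.78 over the FR1 and FR2 libraries. Markers of B cells, of which 4 of 6 were in the table, summed to 9.19 to 14.7 CPM and to 38.3 to 47.4 CPM over the same libraries. BLK and MS4A1 had no values.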

How the data were processed

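RNA-seq of 12 libraries of transduced YT cells was read from the deposited gene and transcript tables. The authors depleted ribosomal RNA (the labels also name oligo(dT) beads), filtered reads with SOAPnuke and mapped them to GRCh38, with HISAT2 2.1.0, Bowtie2 2.3.4.3, RSEM 1.3.1 and DESeq2 1.4.5 named in the submitters' processing notes. The deposited expected counts are RSEM estimates without normalization, and TPM is the length-scaled level that the authors deposited beside them. RSEM divides reads shared by several transcripts among them. The 80 other value columns, such as FPKM, averages and the authors' own comparisons, were not used.

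Expected counts were rounded. Genes passing filterByExpr by group were tested with edgeR 4.0.16 (R 4.3.3) by its quasi-likelihood F test, after TMM scaling, all 12 libraries being fitted together, with Benjamini-Hochberg adjustment over all tested genes within each of the 6 comparisons. The thresholds follow the study's methods. SE is the log2 fold change over the square root of its F statistic. The test was run on simulated counts of FR1 against hnCD16, where it recovered 193 of 194 genes changed by a log2 fold change of 2 among 13423 genes and called 4 unchanged ones. The simulation gave every gene the same low spread and changed few genes. It therefore says little about genes at low counts or about a change as broad as the one in these data. Replicates of a group differed by more than sampling noise, with a chi-square per gene of 2.04 to 12.4. limma 3.58.1 and DESeq2 1.42.0 were run as alternatives.

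The genes and lists were chosen with earlier results of these data known. Named were genes with a group mean of at least 0.5 TPM or called a DEG in any comparison, up to the 30 with the highest group mean. From each other list the 3 highest and 3 lowest DEGs in FR1 against hnCD16 with a mean of at least 1 CPM were eligible, with CTCF, RAD21, SMCHD1, DNMT3B and SETDB1 whatever their values. Genes named outside this rule were chosen after their values were seen. A gene that the rule names is not reported here. Ratios near the floor used summed counts scaled by library size, with exact 95% intervals from the binomial distribution. The main fit did not treat libraries of the same replicate number as paired, and a fit with the number as a block was run as an alternative.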

Additional observations from a re-analysis of the deposited data

How the results depend on the processing

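The counts of DEGs among the clustered protocadherins depended most on how low counts were treated. Values are in the order FR1 against hnCD16, FR2 against hnCD16, FR1 against CTRL and FR2 against CTRL. At least 10 counts in every library, which removes genes that fell to the floor, left 4, 4, 5 and 4 DEGs of 10 genes tested. Over all genes the shares were then 27.8%, 29.3%, 27.6% and 27.6%. limma on log2(TPM + 1) gave 3, 3, 4 and 4 of 33 (29.5%, 31%, 30.4% and 30.7% of all genes). With a pseudocount of 0.1 it gave 21, 20, 25 and 21 (37.3%, 38.9%, 38.3% and 38.8% of all genes). The PCDHB genes alone, a setting chosen after seeing the data, gave 5, 4, 5 and 4 of 9. In FR1 against FR2 the filter at 10 counts, limma on log2(TPM + 1) and the PCDHB genes alone each gave 0. The pseudocount of 0.1 gave 1 there, PCDHA1. A fit of only the 2 groups compared gave 15 in FR1 against hnCD16, of 23 genes tested (37.8% of all genes). Without a filter there was 1 DEG in hnCD16 against CTRL, PCDHGB5, and 2 in FR1 against FR2, where PCDHB8 was added. Without the fold threshold PCDHGB2 was the 1 gene in hnCD16 against CTRL. Leaving out 1 library at a time gave 22 to 26, 20 to 23, 25 to 26 and 21 to 23 DEGs, 0 to 1 in hnCD16 against CTRL (PCDHGA1 without CTRL replicate 3) and 1 to 2 in FR1 against FR2 (PCDHGA1 added without FR2 replicate 3). Same-numbered replicates correlated at -0.102 to 0.404, above 0.1 in 6 of 18 pairs. The highest values were 0.338 and 0.404, for numbers 1 and 3 in hnCD16 against CTRL. The labels do not say whether a number marks a shared batch. With the replicate block there were 23, 21, 25 and 21 DEGs, 0 in hnCD16 against CTRL and 1 in FR1 against FR2. DESeq2, RLE normalization and library size alone kept every count within 1.5 times.

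On the CPM scale the log2 ratio of summed PCDHA was 0.64 in FR1 to hnCD16 and 0.58 in FR2 to CTRL, and that of PCDHB in FR2 to CTRL was -0.82. With single-exon transcripts alone the PCDHGB ratios were -2.2 and -1.89, and PCDHGC in FR2 against CTRL gave no value. Without FR2 replicate 1 the PCDHGC ratio in FR2 to CTRL was -6.7, in a range of -6.7 to -3.53 over libraries left out, and in FR1 to hnCD16 the range was -5.79 to -4.33. Shares on the CPM scale were 69.8% for PCDHA4 in hnCD16, 15.9% for PCDHA1 in FR1 and 35.7% for PCDHGA6 in hnCD16, and with single-exon transcripts 37.1% for PCDHGA6 in hnCD16, 44.4% for PCDHGB2 in hnCD16 and 59.6% for PCDHGB2 in FR1. The PCDHA4 change in FR2 against CTRL ranged from -0.38 to 0.02 over libraries left out and turned to 0.02 without CTRL replicate 3. The cause was not tested.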
